A study of Ramazzottius varieornatus and Hypsibius exemplaris with 16 samples.

Results

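R. varieornatus had 14532 targets (transcript models) quantified in active whole animals and in isolated storage cells. Of these, 91 passed limits of length and mean level in the animals and were without a single count in the storage cell libraries. They were chosen by a fixed rule on the measured values. A target had to be under 9000 bases long, to average 5 or more CPM (the estimated count scaled to the total of its library) over the whole-body libraries, and to have an estimated count that rounds to 0 in every storage cell library. The first 2 conditions left 8744 eligible targets, so the 91 members are 1.04% of those that could have met the rule. Because level and absence chose the members, both are given below as descriptions, without a test. In 9 members the estimated storage cell count was above 0 but at most 0.409, which rounds to 0.

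Tardigrades are small animals with a fluid-filled body cavity in which storage cells float freely. Storage cells are known as depots of nutrient reserves and as part of the supply of yolk to the eggs. A whole animal contains these cells together with the epidermis, gut, muscles, nervous system, excretory organs and gonad.

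The 5 storage cell libraries came from R. varieornatus of strain YOKOZUNA-1, whose cells were released by cutting the animals open in dilute buffer and were drawn up directly. The 3 whole-body libraries came from active animals of the same strain, which the submitters describe as the active control. All these animals were reared at 22 °C on agar with Chlorella as food, and the labels name no genetic change or drug in either group. The labels call the libraries biological replicates, and the number of animals or cells in each is not given in the sources used here. Whole-animal RNA was purified with TRIzol and columns, whereas storage cells were lysed in the buffer of the amplification kit, so sample type and preparation cannot be told apart.

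Storage cell libraries held 8228370 to 11174369 estimated counts and whole-body libraries 5404555 to 5601269. No identifier of the files (0 matches) was found in the RefSeq gene table of the strain, which has 23164 entries under other identifiers. The members are therefore named by identifier only. No gene name, position, sequence or cell type marker is given for them, and the labelled cell type was not checked against markers.

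The highest-level member per length was g5794.t1 (543 bases). It was at 0 in all 5 storage cell libraries, against 692, 928 and 976 TPM (which, unlike CPM, also takes target length into account) in the whole-body libraries, a mean of 865 ± 152 TPM (SD, n = 3). It alone held 27.2% of the TPM of all 91 members. Its whole-body counts were non-whole, and a second target of its gene, g5794.t2, had 3 storage cell counts. The level and share of g5794.t1 thus depend on how reads were divided between these targets. A floor of 3 counts over the 49173384 pooled counts of the storage cell group equals 0.061 CPM. Against this pooled floor g5794.t1 was at least 3570-fold lower in storage cells, as far as counting error goes. In a single storage cell library 3 counts equal 0.268 to 0.365 CPM, and the libraries differed by more than counting error. The 3570-fold is therefore not a bound for each library. In such bulk samples, fewer cells of a type and less RNA per cell cannot be told apart.

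Below it the levels dropped steeply. Target g8480.t1 (729 bases) was at 0 in storage cells, against 244, 120 and 123 TPM in whole bodies. Target g8504.t1 (543 bases) was at 0 in storage cells, against 105, 134 and 43.9 TPM in whole bodies. Both were uneven among the whole animals, with replicate 1 standing high for g8480.t1 and replicate 3 low for g8504.t1. The longer g12943.t1 (2022 bases) was at 0 in storage cells and had 116, 108 and 50.6 TPM in whole bodies, where replicate 3 was the low one. Target g8400.t1 (1002 bases) was at 0 in storage cells and had 105, 71.8 and 77.6 TPM in whole bodies.

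The rest of the 10 highest-level members lay close together. In storage cells g1899.t1, g1833.t1, g2854.t1, g5102.t1 and g12762.t1 were all at 0. In whole bodies g1899.t1 (453 bases) had 59.4, 91 and 94.9 TPM, and g1833.t1 (615 bases) had 65.1, 71.9 and 65.8 TPM. The first varied by replicate and the second hardly did. Whole-body values of g2854.t1 (510 bases) were 67, 96.5 and 37.2 TPM. Those of g5102.t1 (336 bases) were 78, 57.3 and 58.8 TPM, from only 41, 30 and 32 counts (mean 6.27 CPM), since TPM raises short targets. Target g12762.t1 (1263 bases) closed the list with 54.3, 56.8 and 76.7 TPM. From g8504.t1 to g12762.t1 the means ran from 94.4 ± 46 to 62.6 ± 12.3 TPM (SD, n = 3 each), and neighbours in this order did not differ beyond their spread.

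**Figure D1:**
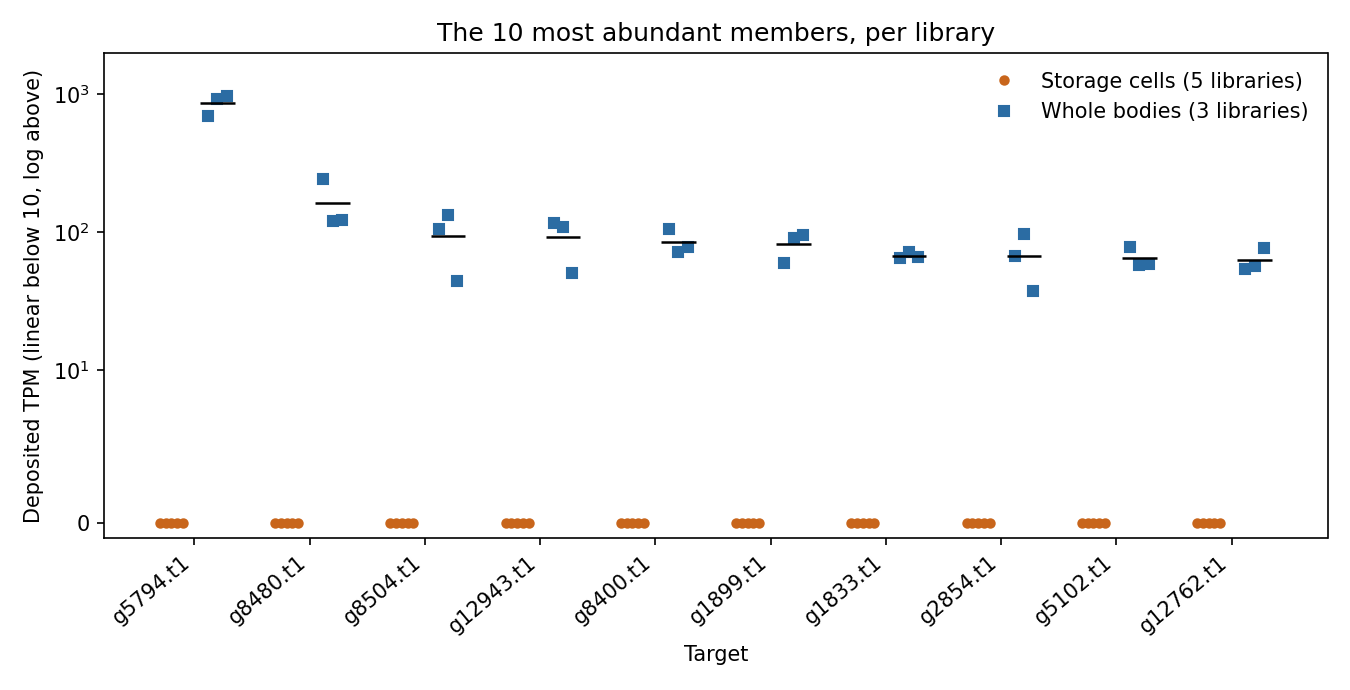
Deposited TPM of the 10 members with the highest mean whole-body TPM, with storage cells (circles, 5 libraries) left of whole bodies (squares, 3 libraries, line at the mean). The axis is linear below 10 TPM and logarithmic above. All storage cell points lie at 0, and g5794.t1 stands above the other 9 members with a whole-body mean of 865 TPM.

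As a group the members were minor components of the animal. In whole bodies they held 0.223%, 0.217% and 0.215% of the estimated counts, a mean of 0.218% ± 0.0039 (SD, n = 3), and 0.318% ± 0.0038 of the TPM. The 10 highest-level members accounted for 51.6% of the members' TPM. The median member was at 10.6 CPM, against 36.4 CPM for the 8653 other eligible targets, and 44 members (48.4%) were under 10 CPM, against 12.6% of the others. Only 4 members reached 100 CPM, and of these only g5794.t1 and g12943.t1 are among the 10 highest by TPM. At its whole-body CPM the lowest member would have about 41.5 counts in storage cell replicate 1, the library of fewest counts, where 43.9% of all eligible targets between 5 and 10 CPM were nevertheless at 0. Against the pooled floor of 3 counts, which covers counting error only, members were at least 82.6-fold to 3570-fold lower in storage cells, with a median of 174-fold.

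The cut at 5 CPM passed through a continuous range. Just inside it, g1019.t1 (450 bases) had 23, 28 and 32 estimated counts in whole bodies and a mean of 5.04 CPM, and g12225.t1 (2193 bases) had 27, 26 and 31 counts and a mean of 5.10 CPM. Just outside, g188.t2 (1968 bases) averaged 4.87 CPM and g4634.t1 (1569 bases) 4.82 CPM, also with no count in storage cells. Below the cut, a further 799 targets under 9000 bases had whole-body signal and no storage cell count.

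The requirement of 0 counts likewise divided a continuous range. Beside the 91 eligible targets with no storage cell count, 48 had exactly 1 count over the 5 libraries, 38 had 2 and 34 had 3. Some of these near misses had more CPM in the animal than any member. Target g1434.t1 (5301 bases) had 1 count in storage cells, in replicate 2, against 2150, 2931 and 3528 counts in whole bodies. Target g1159.t1 (2673 bases) also had 1 count there, in the same replicate, against 1266, 1446 and 1871 counts in whole bodies. The members are therefore not the targets of highest CPM with next to no storage cell signal, but those without a single count.

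Storage cell replicate 2 set the size of the list. Replicate 2 had counts for all but 317 of the 8744 eligible targets (3.63% at 0), while replicates 1, 3, 4 and 5 had none for 21%, 16.4%, 8.86% and 16.7%. By total counts replicate 5 was the deepest with 11174369, and replicate 2 (9977956) lay below replicate 4 (10133428). Scaled by its TMM factor, which adjusts a total for composition, replicate 2 was the deepest at 11706032, against 9077941, 10524318, 8882164 and 7453503 in replicates 1, 3, 4 and 5. The part of depth or composition in these shares was not tested. Of the 406 eligible targets at 0 in exactly 4 libraries, 306 had their counts in replicate 2, and 10, 22, 49 and 19 had theirs in replicates 1, 3, 4 and 5. Without replicate 2 the rule would find 397 targets, and without replicate 4 it would find 140. Without replicates 1, 3 or 5 it would find 101, 113 or 110.

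The 306 targets seen in replicate 2 alone had 1 to 21615 counts there, with a median of 13, and 138 of them had 10 or fewer. The members had a median of 10.6 CPM in the animal, against 15.2 CPM for these 306 targets and 14.4 CPM for all 406 targets at 0 in 4 libraries. The median length was 1275 bases for the members, against 1614 bases for the 306 and 1539 bases for the 406.

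**Figure D2:**
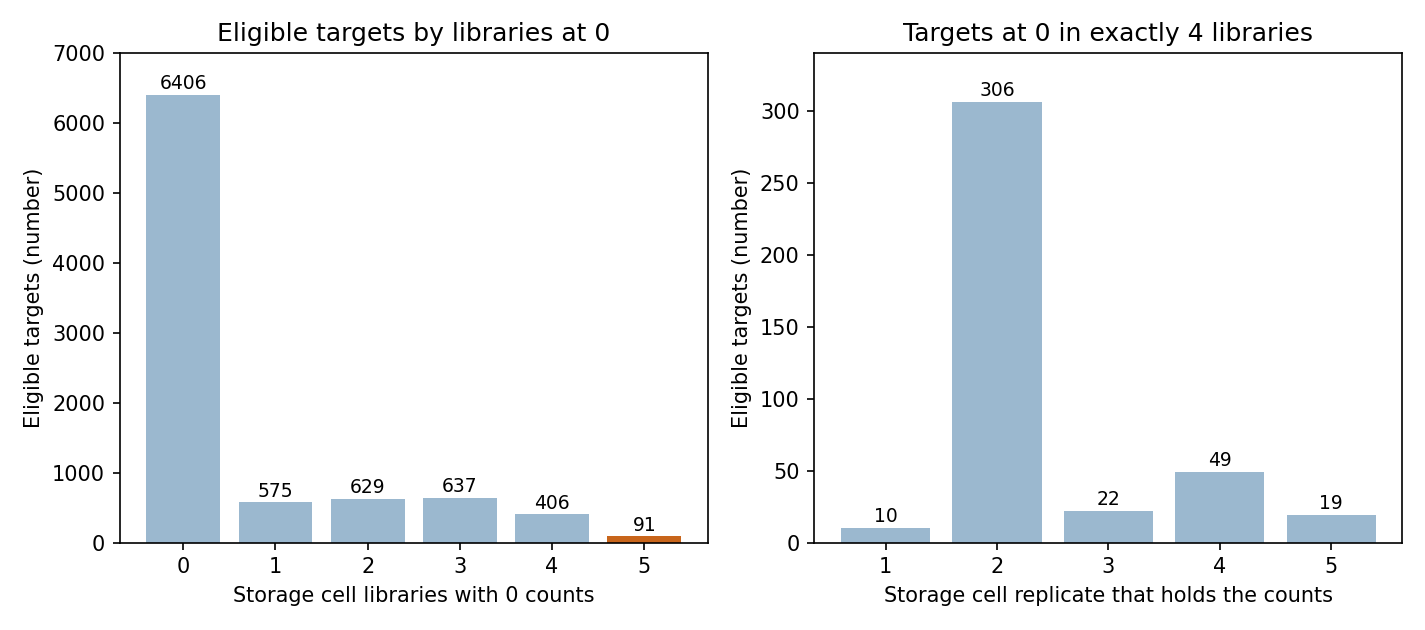
Left, number of the 8744 eligible targets by how many of the 5 storage cell libraries had 0 rounded counts, with the 91 members at 5. Right, the 406 targets at 0 in exactly 4 libraries by the replicate that held their counts, of which 306 fall to replicate 2.

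Absence became rarer as the whole-body level increased. Members made up 3.87% of eligible targets between 5 and 10 CPM (44 of 1137), 1.03% between 10 and 20 CPM (16 of 1553) and 0.798% between 20 and 50 CPM (21 of 2633). Above that they were 0.348% between 50 and 100 CPM, 0.3% between 100 and 200 CPM and 0.143% at 200 CPM or more, which is the single target g5794.t1. The share at 0 in a single storage cell library also became smaller with level at first. In replicate 1 it was 11.6% between 100 and 200 CPM, against the 43.9% given for 5 to 10 CPM. It did not reach 0. At 200 CPM or more, 15.3% of targets were still at 0 in replicate 1 and 2.29% in replicate 2. In replicates 3, 4 and 5 the share at that level was 13.9%, 7.59% and 10.5%. Absence from replicates 1, 3 and 5 thus remained common where absence from all 5 was nearly gone, whereas in replicate 2 it was rare.

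**Figure D3:**
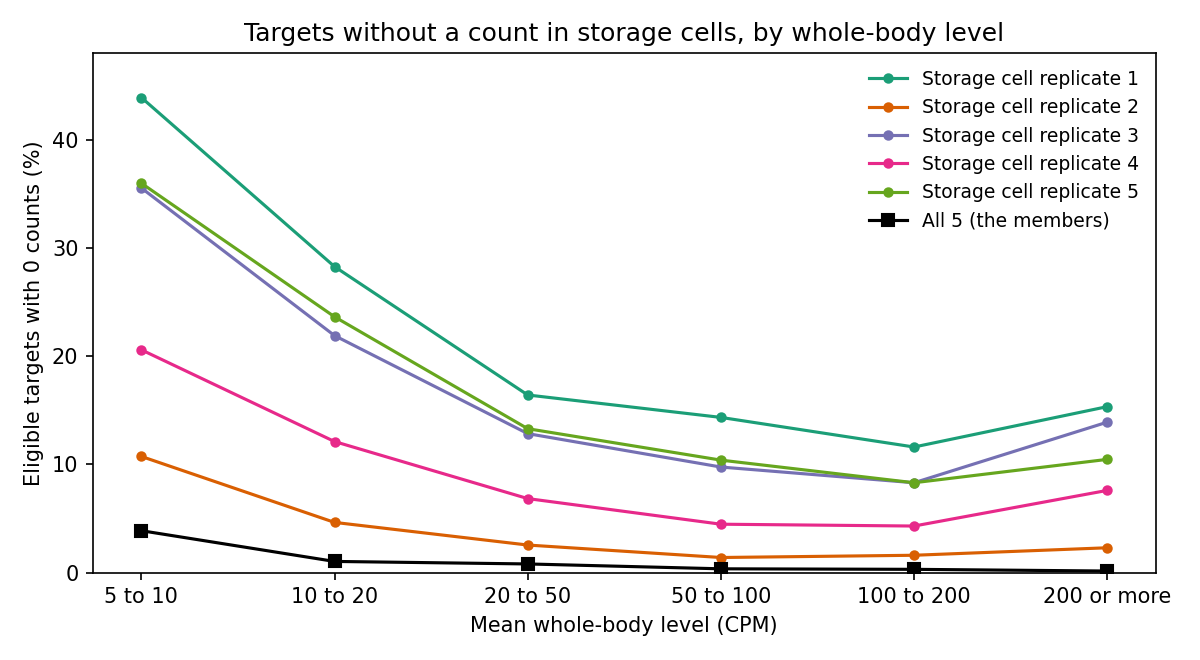
Percent of eligible targets with 0 rounded counts in each storage cell replicate (coloured lines) and in all 5 (black squares, the members), by mean whole-body level in CPM. The black line stands at 3.87% between 5 and 10 CPM and at 0.143% at 200 CPM or more, while replicate 1 stays at 11.6% or above.

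Length set the members apart much less than level. Their median was 1275 bases (quartiles 835.5 and 1936.5), against 1395 bases (894 and 2121) for the other eligible targets. The longest was g5013.t1 (4428 bases), at 0 in storage cells and at 5.54, 4.99 and 5.04 TPM in whole bodies. The shortest was g11987.t1 (315 bases), at 0 in storage cells and at 71.5, 44.3 and 58.9 TPM in whole bodies. Members were 1.7% of eligible targets under 500 bases (9 of 530) and 0.675% of those of 3000 bases or more (7 of 1037), with shares between 0.815% and 1.24% in the length classes between. Lengths were multiples of 3 for 100% of the members, 99.9% of the other eligible targets and 99.6% of all targets. Nearly all are thus of a length that a coding sequence can have, which length alone does not establish.

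By median, the members varied more among the whole animals than other targets of the same level up to 100 CPM. This spread was not used by the rule, which took only the mean. Between 20 and 50 CPM the median coefficient of variation (CV, the SD over the mean of the 3 whole-body libraries) was 0.224 for the 21 members. At that level it was 0.166 for the 89 targets at 0 in 4 storage cell libraries, 0.129 for the 140 at 0 in 3, and 0.102 for the 2059 with counts in all 5. Counting error alone would give about 0.0837 for the members of that class and 0.0752 for the targets with counts in all 5.

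The other classes up to 100 CPM showed the same order. Between 5 and 10 CPM the median CV was 0.278 for the 44 members and 0.212 for the 138 targets at 0 in 4 storage cell libraries. It was 0.167 for the 548 targets with counts in every storage cell library. Between 10 and 20 CPM it was 0.215 for 16 members and 0.126 for 1005 such targets, and between 50 and 100 CPM 0.205 for 6 members and 0.082 for 1413. The targets at 0 in 4 libraries were nearer, with 0.204 (110 targets) between 10 and 20 CPM and 0.163 (37 targets) between 50 and 100 CPM. Their quartile ranges overlapped those of the members in each of these classes. The 3 members between 100 and 200 CPM had a median of 0.0893, below the 0.18 of the 18 targets at 0 in 4 libraries. In all, 71 of 91 members (78%) exceeded the median CV of the targets of their level with counts in all 5 storage cell libraries. Among the 8653 other eligible targets 54.5% did. Of these others, 6406 are the very targets that set the median, which fixes much of that share in advance, so the shares are not like for like. Members also had the higher median among targets that are the only one of their gene and had whole counts, where the medians were 0.244, 0.202, 0.224 and 0.207 for members and 0.164, 0.122, 0.101 and 0.0792 for targets with counts in all 5 storage cell libraries, from the lowest class to that between 50 and 100 CPM. For such targets at 0 in 4 storage cell libraries the medians in these classes were 0.201, 0.182, 0.156 and 0.126. Targets of 1 library share its preparation and are not independent, so no test was made across them.

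The highest whole-body values were spread over all 3 libraries. Members were highest in replicate 1 in 34 cases, in replicate 2 in 22 and in replicate 3 in 35, or 37.4%, 24.2% and 38.5%. The other eligible targets peaked in these replicates in 31.5%, 39% and 29.6% of cases. Among members of 20 CPM or more, g5787.t1 (942 bases) was the most uneven, at 0 in storage cells and at 67.6, 5.93 and 51 TPM in whole bodies. The steadiest was g13442.t1 (2043 bases), at 0 in storage cells and at 14.4, 14.5 and 15 TPM in whole bodies.

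**Figure D4:**
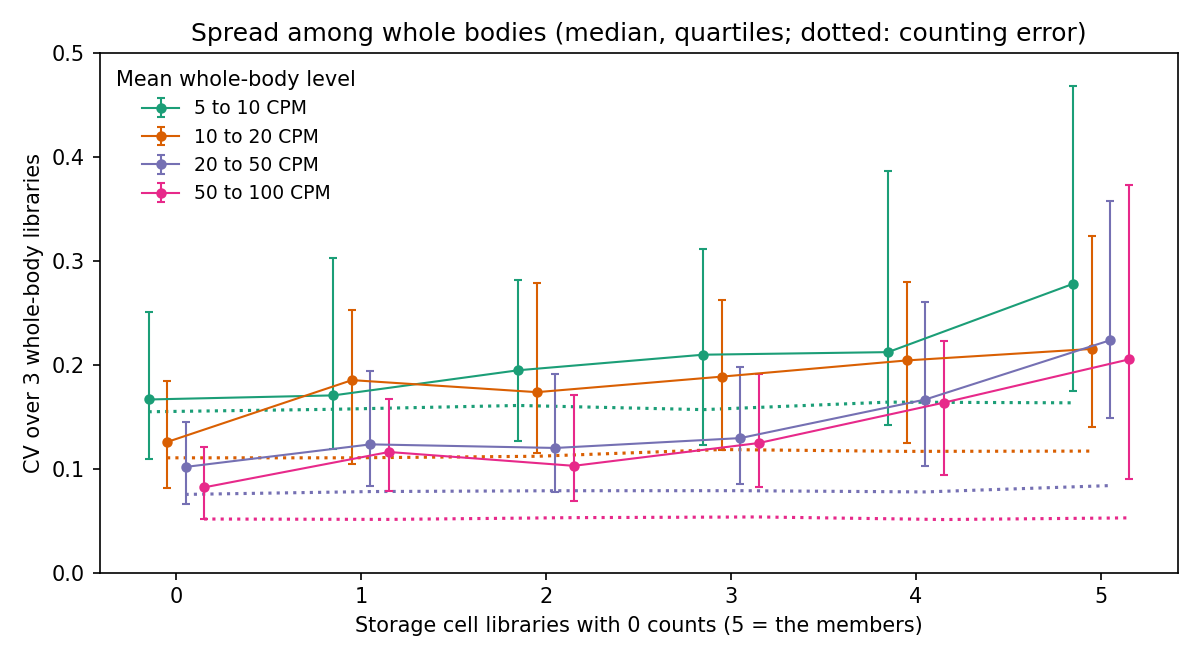
Median coefficient of variation over the 3 whole-body libraries (points, with quartiles as bars) by the number of storage cell libraries at 0, in 4 classes of mean whole-body level. Dotted lines give the CV expected from counting alone. Members (at 5) have the highest median in each class shown, for example 0.224 between 20 and 50 CPM, against 0.102 for targets with counts in all 5 storage cell libraries.

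Not every member stands for a gene that was absent. The 91 members belong to 90 genes as judged by the identifiers. For 70 members the target is the only one of its gene, and all of their whole-body counts were whole numbers. The other 21 members (23.1%, against 6.65% of the other eligible targets) come from 20 genes with several targets, and all 21 had a non-whole count in whole bodies, which arises when reads are divided between targets of similar sequence. Over all targets of a gene, 74 of the 90 genes had no storage cell count, and 16 had counts in another target, 5 of them 100 or more. The levels of these 21 members are uncertain for that reason. When counts were summed per gene, the rule would find 76 genes.

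Gene g8767 is one of the 5 genes with 100 or more storage cell counts in another target. Its member g8767.t2 (3333 bases) was at 0 in storage cells, against 0, 8.72 and 0 TPM in whole bodies, so that 1 library carried it over the limit. The other target, g8767.t1 (3288 bases), had 65.9, 48.2, 32, 25.1 and 29.8 TPM in storage cells and 39.3, 28.5 and 46.1 TPM in whole bodies. The groups overlapped, and the log2 fold change of 0.78 (SE 0.29) of storage cells over whole bodies did not pass the threshold (edgeR quasi-likelihood test, adjusted p = 0.0764). With upper-quartile factors in the same test it did (edgeR adjusted p = 0.0417), and over all alternatives the adjusted p ranged from 0.0417 to 0.97.

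Gene g6170 was similar. Member g6170.t3 (2250 bases) was at 0 in storage cells, against 7.39, 5.02 and 0.00716 TPM in whole bodies. Target g6170.t2 (2307 bases) had 47.7, 66.4, 70.3, 36.1 and 45.1 TPM in storage cells and 56.3, 47.3 and 55 TPM in whole bodies (log2 fold change 0.79, SE 0.28, edgeR adjusted p = 0.0673). Target g6170.t1 (2355 bases) ranged widely, with 5.23, 43.3, 22.7, 40.4 and 2.31 TPM in storage cells and 23.7, 36.8 and 33.3 TPM in whole bodies (log2 fold change 0.37, SE 0.89, edgeR adjusted p = 0.79). Neither difference passed the threshold, and both had the other sign on log2(TPM + 1), that of g6170.t1 also with voom. For g6170.t2 the edgeR adjusted p was 0.0435 with upper-quartile factors and 0.0288 without storage cell replicate 1. With voom and quality weights g6170.t2 was also called higher (log2 fold change 0.83, limma adjusted p = 0.0231), and over all alternatives its adjusted p ranged from 0.0231 to 0.938. Both genes therefore had storage cell signal through targets other than the member.

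At gene g7602 the remaining target was itself lower. Member g7602.t1 (3933 bases) was at 0 in storage cells and at 0, 1.1 and 4.42 TPM in whole bodies. Target g7602.t2 (3834 bases) had 2.47, 6.34, 11.7, 2.98 and 4.67 TPM in storage cells, against 51.4, 60.3 and 42.4 TPM in whole bodies. Its log2 fold change was -2.49 (SE 0.51, edgeR adjusted p = 0.0101), and the groups did not overlap.

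For g5794, the gene of the highest-level member, both targets were nearly missing from storage cells. Its second target g5794.t2 (531 bases) had 2 counts in storage cell replicate 2, 1 count in replicate 5 and none in the other 3 libraries, against 425, 875 and 649 TPM in whole bodies. In contrast to g8767 and g6170, the low signal of this gene does not depend on how reads were divided between its targets.

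**Figure D5:**
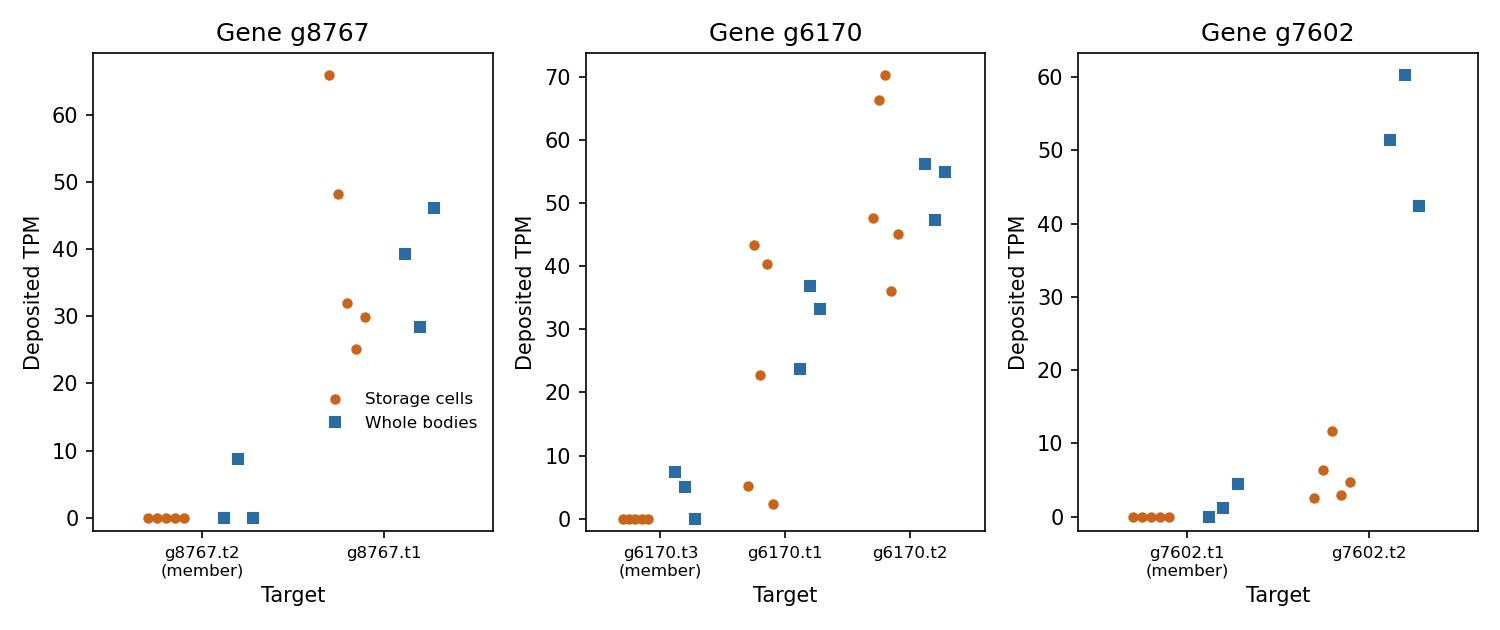
Deposited TPM of every target of genes g8767, g6170 and g7602, with storage cells (circles, 5 libraries) left of whole bodies (squares, 3 libraries). The member of each gene is at 0 in storage cells and at 8.72 TPM or less in whole bodies, whereas the other targets of g8767 and g6170 have storage cell values of up to 65.9 and 70.3 TPM.

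In the fit that set storage cells against whole bodies, 30.2% of the 10483 targets tested passed an adjusted p of 0.05 (edgeR quasi-likelihood test), with 16.6% lower and 13.6% higher in storage cells. Of the 91 members, 85 passed the filter on low counts and all 85 were called lower. The rule used this contrast, so nothing is read from that count. Of the 24 other targets of member genes, 12 were tested, and 3 of these (25%) were called lower and none higher, with a median log2 fold change of -3.48, against -0.14 over all targets tested. The 3 were g5794.t2, g13428.t1 and g7602.t2, and without storage cell replicate 2 there were 6 such calls (50% of 12), against 24.5% of all targets tested in that fit. These targets share their genes, and in part their reads, with members. Their values are therefore not independent of the rule, and the difference from all targets was not tested.

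Members were mostly scattered over the gene numbers of the annotation. The files give no positions, so closeness is that of the numbers in the identifiers. Only 2 pairs of member genes had consecutive numbers. In the pair g12113 and g12114, g12113.t1 (1275 bases) was at 0 in storage cells and at 8.06, 5.76 and 10.2 TPM in whole bodies, and g12114.t1 (1098 bases) was at 0 in storage cells and at 9.03, 5.50 and 7.11 TPM in whole bodies. Both had their lowest value in whole-body replicate 2, but g12113.t1 was highest in replicate 3 and g12114.t1 in replicate 1. The counts were small (42, 30 and 55 against 38, 23 and 31), so whether the pair varies together cannot be told.

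In the other pair the lowest values fell in different whole-body replicates. Target g10754.t3 (1524 bases), which shares reads with 2 further targets of its gene, was at 0 in storage cells and at 6.43, 2.47 and 5.80 TPM in whole bodies. Target g10755.t1 (1935 bases) was at 0 in storage cells and at 2.00, 3.17 and 4.66 TPM in whole bodies. Of the 69 member genes with an eligible neighbour number, 4 (5.8%) had another member beside them, against 1.18% of the 7622 eligible genes of that kind.

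Targets that were not members but carried a neighbouring gene number were also counted. There were 180 of them, of which 117 were tested. Among these, 40 (34.2%) were called lower and 10 (8.55%) higher in storage cells, against 16.6% lower and 13.6% higher over all targets tested (edgeR quasi-likelihood test). Their median log2 fold change was -2.11, against -0.14 over all targets tested. Leaving out whole-body replicate 1, 2 or 3 left 19, 20 or 19 of these lower calls (15.3%, 16.4% and 15.7% of those tested), against 7.27%, 7.82% and 7.45% of all targets. The count for neighbours thus depended on every whole-body library, as did the background count.

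The rule found 91 of 8744 eligible targets (1.04%) in R. varieornatus and, applied in the same way to the other species of the series, H. exemplaris (strain Z151, reared at 18 °C), 393 of 9865 (3.98%). Without storage cell replicate 2 it would find 397 of the 8744 in R. varieornatus, so the contrast in share depends on that replicate. No library was left out in H. exemplaris, and depth was not compared between the species. The identifiers of the species are not paired in the files, so it was not tested whether the same genes are involved, and the difference in share was not tested either.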

How the data were processed

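Per the submitters' processing notes, bcl2fastq 2 and kallisto 0.46.1 were used. For read filters, genome build and transcript models, the treatment is not given in the sources used here. Per library, the authors deposited 1 table with, per the file headers, a target's length, effective length, estimated count and TPM. Estimated counts are not normalized and can be non-whole (judged at a tolerance of 1e-06) where reads are shared between targets. The deposited TPM values are scaled by effective length and to the same total in every library.

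Samples were grouped by their titles. For tests, estimated counts were rounded and fitted with edgeR 4.0.16 (R 4.3.3): filterByExpr, TMM, and the quasi-likelihood test over the 8 libraries of R. varieornatus, with Benjamini-Hochberg adjustment over all 10483 targets tested and a threshold of 0.05. log2 fold changes are storage cells over whole bodies, and SEs are the fold change over the square root of F. CPM uses library totals. Floors of 3 counts cover counting error only, since amplified reads are not independent molecules. Python 3.11.15, numpy 2.4.6 and pandas 2.3.3 were used for the rest. Library pairs of a group differed by more than counting error (chi-square per degree of freedom of at least 7.1), so none was merged in the fits.

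The members and the rules of description were chosen with earlier results of these data known. Targets named are the 10 highest by whole-body TPM, those nearest to the limits, the extremes of length and of CV (at 20 CPM or more), consecutive gene numbers, and the other targets of member genes highest in storage cells. The members and other targets of g8767, g6170, g7602, g5794 and g13428 that this rule does not give, and the pairs given under other observations, were picked after their values were seen. Alternatives comprised other limits of the rule, leaving out each library, other scalings and tools (DESeq2 1.42.0, limma 3.58.1 with a pseudocount of 1 on TPM), no filter, and a replicate block.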

Additional observations from a re-analysis of the deposited data

Results flagged for a closer look

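Over 8 measures of the 5 storage cell libraries, 3 had a library far from the others (a gap of over 0.71 of the group's range). Chance passes this cut about 1 time in 20 for a single measure chosen beforehand. Some of the measures were chosen for their storage cell counts or built from the zeros used by the rule, so the 3 cannot be set against that rate. The number of eligible targets with counts in 1 storage cell library only was 306 in replicate 2, against 10 to 49 in the other 4. The remaining cases are the near misses g1434.t1 and g1159.t1, each at 0.100 CPM (1 count) in replicate 2 and 0 elsewhere, which a single count produces by itself.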

How the results depend on the processing

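The number of members (91) was 182 at a minimum of 2 CPM, 47 at 10 CPM, 153 at 5 TPM and 139 with 1 count allowed. It ranged from 85 to 397 with 1 library left out, and the other limits, thinning to 5404544 counts (130 targets) and summing per gene (76, an alternative chosen after seeing the data) moved it by less than 1.5 times. The members' share of whole-body RNA was 0.318% by TPM and 0.216% to 0.22% with 1 library left out. Calls over all targets (3161) numbered 4830 with limma on log2(TPM + 1), 6533 with voom and quality weights, and 1167 to 4319 with 1 library left out. Members called lower numbered 74 to 85 of 85 to 87 tested with 1 library left out (86% to 100%, against 7.27% to 24.5% of all targets). The rule used this contrast, so nothing is read from these counts. Of the other isoforms of member genes, 7 of 12 were called lower with DESeq2 (58.3%, against 24.4% of all targets), 7 of 23 without the filter (30.4%, against 14.3%), 9 of 12 with limma on log2(TPM + 1) or voom (75%, against 40.4% and 41.2%), and 3 to 6 with 1 library left out (21.4% to 50%, against 7.27% to 24.5%). Of the 117 neighbours tested, 72 were called lower with limma on log2(TPM + 1) (61.5%, against 40.4% of all targets) and 74 with voom (63.2%, against 41.2%), and 19 to 51 with 1 library left out (15.3% to 43.6%, against 7.27% to 24.5%). The median log2 fold change of all targets moved between -1.12 (TPM) and 0 (upper-quartile factors), so log2 values near 0 depend on the scaling. With the replicate number as a block, edgeR made 0 calls over all targets, 0 of members, 0 of isoforms and 0 of neighbours. The unadjusted edgeR p was under 0.05 for 3127, 85, 6 and 42 of them. Same-numbered libraries showed little joint deviation (r of 0.0125 to 0.0367 across targets). Storage cell libraries differed widely from one another (chi-square per degree of freedom of 257 to 761), so this check could miss a pairing and does not exclude one. The log2 fold change of g6170.t1 was -1.03 with log2(TPM + 1), -0.26 with the replicate block, -0.62 with voom and between -0.14 (without storage cell replicate 4) and 0.65 (without replicate 1) with 1 library left out. That of g6170.t2 was -0.032 with log2(TPM + 1). The causes of these changes were not tested. Levels under about 0.061 CPM in storage cells are beyond this pooled depth.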

Other observations

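The reverse pattern was rarer. The members were 91 of 8744 eligible targets (1.04%), whereas 2 of 7447 targets under 9000 bases (0.0269%) had a mean of 5 CPM or more in storage cells and no count in the 3 whole-body libraries. A whole animal contains its storage cells, so few targets could show the reverse pattern. The limits also differ in depth and in number of libraries, so the shares are not like for like, and the difference was not tested. Among the 53 targets of 9000 bases or more with 5 CPM in whole bodies, 1 had no storage cell count.

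A further 2 pairs of member genes were 2 numbers apart. Targets g7678.t1 (795 bases) and g7680.t1 (801 bases) were at 0 in storage cells. In whole bodies g7678.t1 had 47.6, 54 and 63.3 TPM and g7680.t1 had 14.1, 29.5 and 20.3 TPM. Targets g5785.t1 (1752 bases) and g5787.t1 were also at 0 in storage cells. In whole bodies g5785.t1 had 28.5, 28.8 and 13.8 TPM, with its low value in replicate 3, whereas g5787.t1 was low in replicate 2. Within 2 gene numbers, 8 of 90 member genes (8.89%) had another member, against 2.49% of 8498 eligible genes. Within 5 numbers it was again 8 of 90 (8.89%), against 6.13%, and within 10 numbers 14.4% against 11.4%. Both genes of a pair are counted in these shares.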
